A study of Rattus norvegicus with 6 samples.

Results

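The genes described here encode proteins that package DNA, write, remove or read chemical marks on histones and DNA, or move nucleosomes. They were chosen by name from the deposited expression table, for example every symbol that begins with Kdm, Hdac, Smarc, Chd or Dnmt followed by a number or letter, together with histones, their chaperones, the general transcription factor TFIID and Mediator. The name rule found 70 of the 3221 entries of the table. These 70 entries stand for 69 genes, because the remodeler Chd9 has 2 entries under the same Ensembl identifier.

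The cells were neonatal rat ventricular myocytes (NRVMs), beating muscle cells isolated from the hearts of 2-day-old Sprague Dawley rats. Cells received serum of nonfailing (NF) pediatric controls or serum of pediatric patients with dilated cardiomyopathy (DCM), a disease in which the ventricle widens and pumps weakly. The labels give 1% serum for 72 hours in both groups, whereas the study's methods give a higher serum share and a range of times. The study's methods name 3 cell preparations, and the column headers pair each DCM library with 1 NF library. These pairs were taken as the preparations and are called A, B and C here. There were 3 libraries per serum, and each library pooled 2 RNA preparations. Such cultures are prepared from whole ventricles and can hold cells other than myocytes. The NF libraries of B and C are labelled with identical sample numbers, which may mean shared sera, while the 3 DCM libraries have different numbers.

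Chromatin is built from nucleosomes, in which DNA is wound around histones. Acetyltransferases and methyltransferases place marks on histone tails, deacetylases and demethylases take them off, and reader proteins bind the marks and recruit further factors. Remodelers spend ATP to slide or evict nucleosomes, and Mediator and TFIID connect DNA-bound factors with RNA polymerase II. In heart muscle, class II deacetylases such as Hdac9 are known to restrain the hypertrophic gene program, and many of the histone genes and their chaperones are expressed mainly in cells that copy their DNA.

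Expression was given as FPKM, in which reads are scaled to transcript length and to library size. Read counts were not used here. The study's methods give depth only as an average of mapped reads per library, so the counts behind single values are unknown. All 3221 entries had an authors' q under 0.10, so every gene had already been selected for a difference in these same 6 libraries, and no gene outside the selection was examined. DCM and NF libraries were compared with limma on log2(FPKM + 1), with the NRVM preparation as a block and Benjamini-Hochberg adjustment over all 3221 entries. The words rose and fell are kept for an adjusted p under 0.10. Such p-values measure only the spread between these libraries and take no account of the earlier selection. Effects are given as the log2 ratio of DCM to NF FPKM, without a pseudocount, as the mean ± SD over the 3 preparations.

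Most chromatin genes of the table were lower with DCM serum, and so was most of the table. Of the 70 entries, 45 fell, 1 rose and 24 did not pass. The share that fell was 64.3%, against 61.6% of all 3221 entries, the share that rose was 1.43%, against 6.24%, and 65.7% were called in either direction, against 67.8%. The median log2 ratio of the 70 entries was -0.28, and that of the whole table was -0.29. As a group the chromatin genes thus lay close to the table as a whole. Values of the 6 libraries did not overlap between sera for 24 of 70 entries, all lower with DCM serum, which is 34.3% against 25.7% of the table. None was higher without overlap, against 2.73% of the table.

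**Figure D1:**
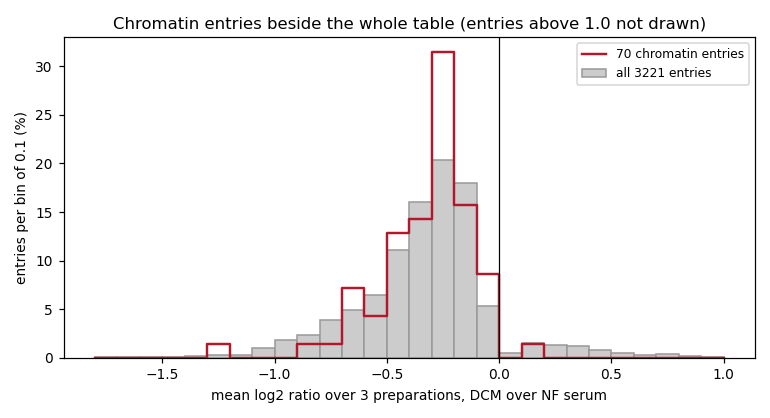
Share of entries (vertical axis, percent per bin of 0.1) by the log2 ratio of DCM over NF, averaged over 3 preparations (horizontal axis), for all 3221 entries (gray bars) and the 70 chromatin entries (red line). Entries above 1.0 are not drawn, none of which is a chromatin gene. The chromatin entries follow the table, with medians of -0.28 and -0.29, and only 1 lies above 0.

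These calls rest on the comparison within preparations and on the selected table. Without the preparation as a block, none of the 70 entries passed limma (lowest adjusted p = 0.294), as against 4 entries of the whole table (0.124%), while 13 chromatin entries (18.6%) had an unadjusted p under 0.05, all lower, against 14.1% of the table lower and 2.45% higher at that level. With adjustment over 20000 genes, a setting that takes each gene outside the table as unchanged, none passed either (lowest limma adjusted p = 0.139), against 0.0931% of the table lower and 0.373% higher.

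The preparations differed in size of response. The median log2 ratio of the chromatin entries was -0.12 in preparation A, -0.40 in B and -0.26 in C, next to -0.17, -0.40 and -0.25 for the table. The ratio was lowest in B for 46 of the 70 entries (65.7%, against 58.0% of the table) and highest in A for 48 (68.6%, against 52.3%). With preparation A left out, 33 entries were called, all lower, including L3mbtl2, which did not pass with all 3 preparations. With B left out 5 were called, and with C left out 7, all lower. Of the 3221 entries of the table, 1164 were called lower without A, 461 without B and 523 without C. Those called higher numbered 140, 131 and 97. Taf9b, Hdac11, Hmgb2 and Arid5b passed with each preparation left out in turn, and were the only 4 chromatin entries to do so. How many entries of the whole table did so was not counted.

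**Figure D2:**
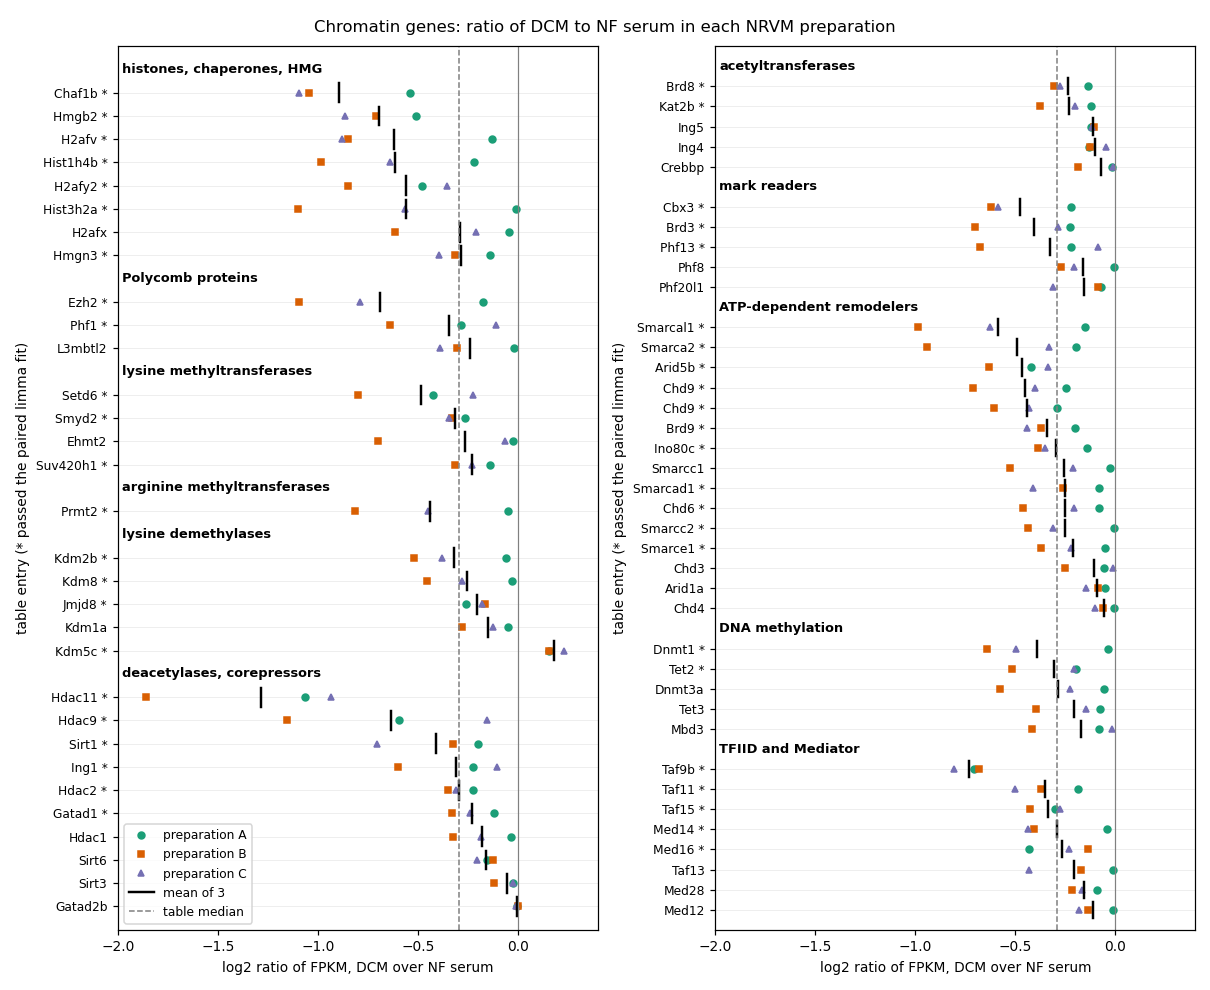
Log2 ratio of DCM to NF FPKM (horizontal axis) for 69 of the 70 chromatin entries, grouped by role, in preparations A (circles), B (squares) and C (triangles). Bars mark the mean of 3, the dashed line is the table median of -0.29, and asterisks mark entries that passed the paired limma fit. Hdac11 lies farthest to the left, Kdm5c is the only entry whose mean lies to the right of 0, and preparation A is most often the highest.

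Histone deacetylases remove acetyl groups, and sirtuins do so with NAD as a cofactor. Of 10 entries for deacetylases and their corepressors, 6 fell (60.0%, against 61.6% of the table) and 4 did not pass. Their median log2 ratio was -0.26. Hdac11, the only class IV deacetylase, was at 1.27, 2.89 and 3.12 FPKM with NF serum and at 0.609, 0.796 and 1.63 FPKM with DCM serum in preparations A, B and C. Every DCM library was below its own NF library, but the DCM library of C stood above the NF library of A. Its log2 ratio was -1.29 ± 0.50, the lowest of the chromatin entries, a level 59.0% lower (limma adjusted p = 0.0316). Hdac9, a class II deacetylase and partner of MEF2 factors in muscle, was at 1.44, 2.55 and 2.15 FPKM with NF serum and at 0.950, 1.15 and 1.93 FPKM with DCM serum. The log2 ratio averaged -0.64 ± 0.50 (limma adjusted p = 0.0694), with most of the difference in B.

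The more abundant class I enzymes showed smaller differences. Hdac2 was at 16.8, 21.2 and 22.9 FPKM with NF serum and at 14.3, 16.6 and 18.4 FPKM with DCM serum, a log2 ratio of -0.30 ± 0.06 (limma adjusted p = 0.0453). The ratios of Hdac2 lay close together in the 3 preparations, although the libraries of different preparations overlapped between sera. Its paralog Hdac1 had -0.18 ± 0.15 and did not pass (limma adjusted p = 0.137). The difference between these paralogs was not tested. Sirt1, a nuclear sirtuin, was at 9.92, 8.96 and 8.53 FPKM with NF serum and at 8.63, 7.16 and 5.23 FPKM with DCM serum, with most of the difference in C and a log2 ratio of -0.41 ± 0.26 (limma adjusted p = 0.0549). Sirt6, another nuclear sirtuin, had -0.16 ± 0.04, and Sirt3, a mitochondrial sirtuin, had -0.06 ± 0.05, and neither passed. Ing1, a reader of methylated histone H3 in SIN3 complexes, fell with a log2 ratio of -0.31 ± 0.26, and Gatad1 fell with -0.23 ± 0.11.

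**Figure D3:**
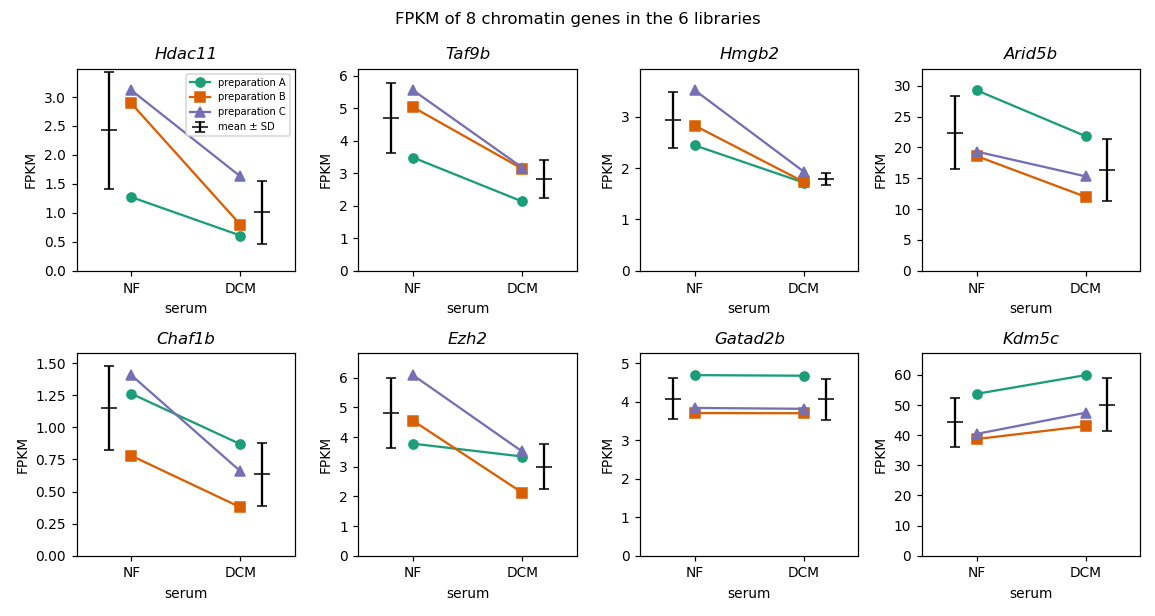
FPKM (vertical axis, from 0) of 8 chromatin genes with NF and DCM serum in preparations A, B and C, with a line joining the libraries of a preparation, and mean ± SD (n = 3) beside the points. In Hdac11, Taf9b, Hmgb2, Arid5b, Chaf1b and Ezh2 every line goes down, in Gatad2b the lines are level (0.332% lower on average), and in Kdm5c every line goes up.

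Histones, histone chaperones and HMG proteins had the lowest median of the roles with more than 1 entry, at -0.59, and 7 of their 8 entries fell (87.5%, against 61.6% of the table) while H2afx did not pass. After each library was centred on the table median, 1 of the 8 was called lower. Chaf1b, a subunit of the assembly factor that places new histones behind the replication fork, was at 1.26, 0.779 and 1.41 FPKM with NF serum and at 0.869, 0.377 and 0.658 FPKM with DCM serum. The log2 ratio averaged -0.89 ± 0.31 (limma adjusted p = 0.0376), at the lowest level of any chromatin entry. Hmgb2, a DNA-bending protein of dividing cells, was at 2.44, 2.83 and 3.52 FPKM with NF serum and at 1.72, 1.73 and 1.93 FPKM with DCM serum. All 3 NF libraries of Hmgb2 were above all 3 DCM libraries, and its log2 ratio was -0.69 ± 0.18 (limma adjusted p = 0.0307).

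Among histones, Hist1h4b, a copy of histone H4, went from 8.63, 11.3 and 12.5 FPKM to 7.42, 5.70 and 8.04 FPKM, with no overlap between sera and a log2 ratio of -0.61 ± 0.38 (limma adjusted p = 0.0460). Hist3h2a, a histone H2A gene, hardly differed in preparation A (9.56 and 9.50 FPKM) and was lower in B (10.1 and 4.69 FPKM) and C (10.4 and 7.05 FPKM), for a log2 ratio of -0.56 ± 0.55 (limma adjusted p = 0.0797). Histone genes have near-identical copies, so the assignment of their reads to a copy is uncertain. The variant histones H2afv, of the H2A.Z type, and H2afy2, a macroH2A, fell with log2 ratios of -0.62 ± 0.42 and -0.56 ± 0.26. H2afx, the H2A variant phosphorylated at DNA breaks, had -0.29 ± 0.29 (limma adjusted p = 0.102). Hmgn3, a nucleosome-binding protein that was among the most abundant members, was at 25.3, 36.6 and 41.4 FPKM against 23.0, 29.4 and 31.5 FPKM and fell, its log2 ratio being -0.28 ± 0.13.

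Cell cycle genes lay in the same direction as histones and their chaperones. Of 47 listed cell cycle genes, 31 were in the table and 30 of them fell (96.8%, against 61.6% of the table), with a median log2 ratio of -0.75. After centring on the table median, 16 of the 31 were called lower, against 8.94% of the table. By preparation their medians were -0.24 (A), -0.90 (B) and -1.07 (C), and those of the histone and chaperone role were -0.18 (A), -0.85 (B) and -0.60 (C). Summed FPKM of the 31 cell cycle genes ranged from 118 to 193 with NF serum and from 63.7 to 127 with DCM serum. In bulk RNA, fewer dividing cells and less of these transcripts per cell cannot be told apart, and the part of cell cycle genes in the result was not tested.

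**Figure D4:**
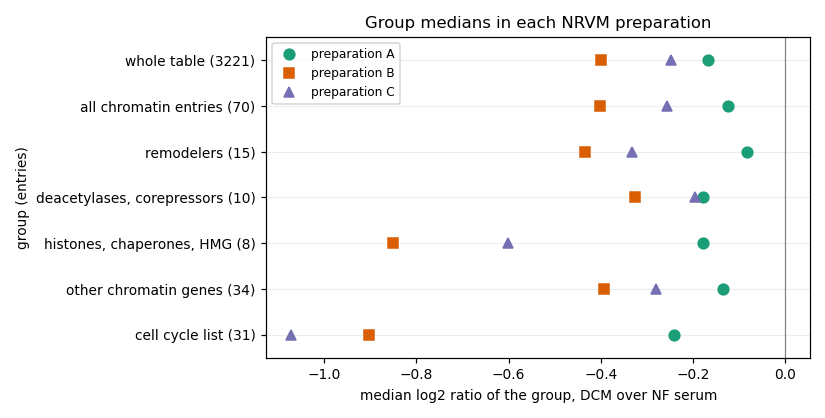
Median log2 ratio, DCM over NF (horizontal axis), for the whole table, the chromatin entries, 3 of their roles, other chromatin genes and the cell cycle list, with the number of entries in parentheses and a symbol for each preparation. The chromatin entries lie at -0.12, -0.40 and -0.26, near the table, while histones with their chaperones (-0.18, -0.85 and -0.60) and the cell cycle list lie lower in B and C.

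Polycomb proteins, which keep developmental genes silent, were represented by 3 entries, of which 2 fell (66.7%, against 61.6% of the table). Ezh2, the enzyme that places the trimethyl mark on lysine 27 of histone H3, was at 3.78, 4.55 and 6.09 FPKM with NF serum and at 3.34, 2.13 and 3.51 FPKM with DCM serum. The sera did not overlap, and the log2 ratio was -0.69 ± 0.47 (limma adjusted p = 0.0499), small in A and large in B and C. Phf1, a partner of the Ezh2 complex, fell with -0.34 ± 0.27. L3mbtl2, of a Polycomb-like repressor complex, had -0.24 ± 0.19 and did not pass (limma adjusted p = 0.102). DNA methylation genes numbered 5, and 2 fell, where 61.6% of the table fell. Dnmt1, which copies DNA methylation onto new strands, was at 8.97, 6.70 and 8.24 FPKM with NF serum and at 8.74, 4.30 and 5.83 FPKM with DCM serum, a log2 ratio of -0.39 ± 0.31 (limma adjusted p = 0.0702). The DCM library of A exceeded 2 of the 3 NF libraries of Dnmt1. Tet2, which oxidizes methylated cytosine, fell with -0.31 ± 0.18 (limma adjusted p = 0.0639). Dnmt3a, which sets new methylation, had -0.29 ± 0.26, Tet3 had -0.21 ± 0.17 and the reader Mbd3 had -0.17 ± 0.21, and these 3 did not pass.

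Ezh2, Dnmt1 and several histone genes are known targets of E2F factors in cells entering DNA synthesis. RefSeq promoters (GRCr8) were searched for an E2F-type site, spelled TTTCCCGC, TTTGGCGC, TTTCGCGC or TTTGCCGC, on both strands, from 250 bases before to 50 after each start site. Promoters were matched for 62 of the 69 genes, 4 of them through a newer symbol, and 9 (14.5%) held a match. The share was 4.80% of 2438 genes of the table with a promoter, 2.95% of all protein-coding genes and 23.1% of the 26 cell cycle genes of the table with a promoter. Counting only matches before the start site, the shares were 4 of 62 members (6.45%), 3.57% of the table, 2.39% of protein-coding genes and 15.4% of the cell cycle genes. The matches of Hist1h4b and Hist3h2a lie 38 and 27 bases past the start site and follow an ATG with an open frame, so they may be coding sequence, which histone gene copies share, and are not shown. The other 7 are shown as 30-base windows on the gene's strand, with the match in capitals, because they include genes that fell and genes that did not.
Ezh2 (chr4:77687156-77687185, minus strand): gggctgctgcgTTTGGCGCtcggtccggtc
Dnmt1 (chr8:27762798-27762827, minus strand): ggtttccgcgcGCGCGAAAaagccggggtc
Cbx3 (chr4:81876435-81876464, plus strand): cggagccctgcTTTGGCGCgctttgagact
Smarce1 (chr10:84676300-84676329, minus strand): aaaaaaaaatcTTTGGCGCactaaaccttg
Gatad1 (chr4:31462106-31462135, plus strand): aattctatattTTTCCCGCccgttataaac
Arid1a (chr5:151265423-151265452, minus strand): tccctccctccTTTCCCGCcccctccccct
Kdm1a (chr5:154121726-154121755, minus strand): gcggaggtgctcggTTTCGCGCggaccgtg
In Dnmt1, whose window is on the minus strand, the match is the reverse complement of TTTCGCGC, 25 bases past the start site, and in Ezh2 it begins 9 bases past it. Arid1a (log2 ratio -0.09 ± 0.05) and Kdm1a (-0.15 ± 0.12) hold a match and did not pass. A match is a stretch of letters and not a measured binding site.

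Lysine methyltransferases, which mark histone tails and other proteins, numbered 4, and 3 fell, where 61.6% of the table fell. Smyd2, a methyltransferase expressed in heart that also acts on proteins other than histones, was at 27.8, 28.4 and 28.3 FPKM with NF serum and at 23.1, 22.6 and 22.2 FPKM with DCM serum. The libraries of each serum lay close together without overlap, for a log2 ratio of -0.31 ± 0.04 (limma adjusted p = 0.0407). Setd6, which methylates the RelA subunit of NF-kappaB, was at 6.35, 7.42 and 6.31 FPKM against 4.73, 4.26 and 5.41 FPKM and fell without overlap, for a log2 ratio of -0.48 ± 0.29 (limma adjusted p = 0.0506). Suv420h1, which methylates lysine 20 of histone H4, fell with -0.23 ± 0.09. Ehmt2, which methylates lysine 9 of histone H3, had -0.26 ± 0.38 and did not pass, with nearly equal values in A and C. Prmt2 was the only arginine methyltransferase, and its log2 ratio was -0.44 ± 0.38 (limma adjusted p = 0.0797).

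Kdm5c, a demethylase of lysine 4 of histone H3, was the only member that rose and the most abundant member. It was at 53.7, 38.7 and 40.4 FPKM with NF serum and at 59.9, 43.0 and 47.4 FPKM with DCM serum. Each DCM library was above the NF library of its preparation, but preparation A was highest with either serum, and the libraries of the sera overlapped. Its log2 ratio was 0.18 ± 0.04 (limma adjusted p = 0.0819), and the call was lost when any preparation was omitted or the pseudocount changed. Among the other 4 entries with demethylase names, Kdm2b, which acts on lysine 36 of histone H3, fell with -0.32 ± 0.23, and Kdm8 and Jmjd8, proteins with the JmjC fold of hydroxylases, fell with -0.26 ± 0.21 and -0.20 ± 0.05. Kdm1a did not pass, so 3 of the 5 entries with demethylase names fell (60.0%, against 61.6% of the table).

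Acetyltransferases and their partners had a median of -0.11 over 5 entries, the closest to 0 of the roles with more than 1 entry. Of these 5 entries 2 fell, where 61.6% of the table fell. Kat2b, a histone acetyltransferase of SAGA-type complexes, was at 8.21, 9.21 and 9.15 FPKM against 7.56, 7.10 and 7.96 FPKM and fell without overlap, its log2 ratio being -0.23 ± 0.13 (limma adjusted p = 0.0805). Brd8, a bromodomain subunit of the TIP60 acetyltransferase complex, fell with -0.24 ± 0.09 (limma adjusted p = 0.0656). The coactivator Crebbp had -0.07 ± 0.10, and the PHD finger proteins Ing4 and Ing5 had -0.10 ± 0.05 and -0.11 ± 0.01, and none of these 3 passed. Among mark readers, 3 of 5 fell (60.0%, against 61.6% of the table). Cbx3, a heterochromatin protein that binds methylated lysine 9, was at 12.4, 17.4 and 20.2 FPKM with NF serum and at 10.6, 11.3 and 13.4 FPKM with DCM serum, a log2 ratio of -0.48 ± 0.22 (limma adjusted p = 0.0410). Brd3, a BET protein that binds acetylated histones, fell with -0.41 ± 0.26, and Phf13, a PHD finger reader, with -0.33 ± 0.31. Phf8 and Phf20l1 had -0.16 ± 0.14 and -0.16 ± 0.13 and did not pass.

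ATP-dependent remodelers formed the largest role, and 11 of 15 entries fell (73.3%, against 61.6% of the table). Their median of -0.25 was closer to 0 than the -0.29 of the table, and after centring on the table median none of the 15 was called. In 10 of the 15 entries (25.7% in the table) all NF libraries were above all DCM libraries. Smarcal1, a helicase that restarts stalled replication forks, was at 2.69, 3.20 and 3.28 FPKM with NF serum and at 2.42, 1.61 and 2.12 FPKM with DCM serum, a log2 ratio of -0.59 ± 0.42 (limma adjusted p = 0.0574). Smarca2, the BRM motor of SWI/SNF complexes, was at 4.81, 5.66 and 4.87 FPKM against 4.20, 2.94 and 3.87 FPKM and fell without overlap, for a log2 ratio of -0.49 ± 0.40 (limma adjusted p = 0.0660). Arid5b, grouped here by its ARID domain though it is a DNA-binding partner of a histone demethylase, was at 29.3, 18.6 and 19.3 FPKM with NF serum and at 21.8, 12 and 15.3 FPKM with DCM serum. Preparation A was highest for Arid5b with either serum, so the sera overlapped, while its ratios lay close together at -0.46 ± 0.15 (limma adjusted p = 0.0324). Chd9 fell in both entries, with -0.45 ± 0.24 and -0.44 ± 0.16, which are not independent because they carry the same identifier. Brd9, a SWI/SNF subunit, was at 9.97, 10.1 and 10.0 FPKM with NF serum and at 8.67, 7.81 and 7.39 FPKM with DCM serum, a log2 ratio of -0.34 ± 0.12 (limma adjusted p = 0.0455). The other remodelers that fell, Ino80c, Smarcad1, Chd6, Smarcc2 and Smarce1, had log2 ratios from -0.29 ± 0.13 to -0.21 ± 0.16.

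Subunits of the same complex did not all pass. Complexes were put together after the values were seen and are given as a description, beside the 61.6% of the table that fell. Of 8 SWI/SNF genes, Smarca2, Smarcc2, Smarce1 and Brd9 fell, as did Bcl7a (-0.64 ± 0.38) and Dpf3 (-0.30 ± 0.25), which the name rule does not reach, whereas Arid1a and Smarcc1 (-0.25 ± 0.25) did not pass. Of 8 genes of NuRD, a complex that joins a remodeler with deacetylases, Hdac2, Mta1 (-0.23 ± 0.09) and Rbbp4 (-0.22 ± 0.05) fell. Its motors Chd3 (-0.11 ± 0.13) and Chd4 (-0.05 ± 0.05), Hdac1, Mbd3 and Gatad2b did not. Chd4 was at 41.9, 37.6 and 36.8 FPKM with NF serum and at 41.8, 36.1 and 34.4 FPKM with DCM serum. Gatad2b was at 4.70, 3.71 and 3.84 FPKM with NF serum and at 4.68, 3.71 and 3.82 FPKM with DCM serum, 0.332% lower on average. In all, 6 of the 70 entries (8.57%, against 5.74% of the table) had a mean log2 ratio within 0.1 of 0, so presence in the selected table does not imply a large difference.

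Of 8 entries named as TFIID or Mediator subunits, 5 fell (62.5%, against 61.6% of the table), with a median of -0.28. Taf9b, a TFIID subunit and paralog of Taf9, was at 3.48, 5.03 and 5.55 FPKM with NF serum and at 2.13, 3.14 and 3.18 FPKM with DCM serum. No DCM library reached the lowest NF library, and the ratios of the 3 preparations were nearly the same, at -0.73 ± 0.07. Its limma adjusted p of 0.0223 was the lowest among the chromatin entries. Taf11, a histone-fold subunit of TFIID, and Taf15, an RNA-binding protein of the FET family, fell with -0.35 ± 0.16 and -0.33 ± 0.08, both without overlap between sera. Of Mediator, Med14, its backbone, and Med16, of its tail, fell with -0.29 ± 0.22 and -0.27 ± 0.15. Med12 of the kinase module (-0.11 ± 0.09), Med28 (-0.16 ± 0.06) and Taf13 (-0.21 ± 0.21) did not pass.

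Relative to the shift of the table, few chromatin entries stood out. When each library was centred on the table median, limma called 3 entries lower (4.29%, against 8.94% of the table) and 2 higher (2.86%, against 7.89%). Those lower were Hdac11 (adjusted p = 0.00190), Taf9b (limma adjusted p = 0.0290) and Hist1h4b (limma adjusted p = 0.0715). Those higher were Kdm5c (limma adjusted p = 0.00294) and Gatad2b (limma adjusted p = 0.0893). In log2 ratios, 14 of the 70 entries (23.2% of the table) were below the table median in all 3 preparations and 21 (24.0% of the table) were above it in all 3.

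Chromatin genes that the name rule does not reach were mostly lower as well. Of 194 such genes listed, 34 were in the table, of which 27 fell (79.4%, against 61.6% of the table), 1 rose and 6 did not pass. Their median log2 ratio of -0.29 equalled that of the table to 2 decimals, and after centring 1 was called lower and 1 higher. Those of smallest p were Dpy30 (-0.37 ± 0.16), a subunit of complexes that methylate lysine 4 of histone H3, the Polycomb proteins Scmh1 (-0.62 ± 0.38) and Rybp (-0.28 ± 0.04), and Bcl7a. Men1, menin, a partner of MLL methyltransferases, rose for a log2 ratio of 0.24 ± 0.04 (limma adjusted p = 0.0607), from 8.97, 7.32 and 8.73 FPKM to 10.3, 8.84 and 10.3 FPKM. Uhrf1, which guides Dnmt1 to newly copied DNA, fell with -0.58 ± 0.37.

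Cell type markers could be checked only as far as the table holds them. Of 14 listed cardiomyocyte genes the table held Myl2, the ventricular myosin light chain, at 9235 to 11358 FPKM with NF serum and 6628 to 11269 FPKM with DCM serum. Myl2 did not pass (limma adjusted p = 0.165), with log2 ratios of -0.64 in A, -0.08 in B and -0.01 in C. The table held 2 of 9 fibroblast markers (summed level 13.8 to 64.0 FPKM with NF and 10.3 to 38 FPKM with DCM serum), 2 of 6 smooth muscle markers (119 to 152 and 75 to 122 FPKM) and none of 7 macrophage markers. All 4 fell: the fibroblast genes Postn (-0.40 ± 0.34) and Lum (-0.47 ± 0.38) and the smooth muscle genes Tagln (-0.38 ± 0.27) and Smtn (-0.41 ± 0.28), with limma adjusted p from 0.0586 to 0.0738. Of 7 endothelial markers it held Pecam1, at 1.51 to 2.19 FPKM with NF and 2.34 to 3.22 FPKM with DCM serum, which rose. The part of these other cell types in the results was not tested.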

How the data were processed

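Per the authors' methods, directional mRNA reads were aligned with GSNAP (Rnor_5.0), and Cufflinks gave the FPKM values they deposited. Tool versions are not given in the sources used here. The deposited table held 3221 entries (3219 Ensembl identifiers), each with q under 0.10 and none with a variance under 0.1 or an FPKM of 0. It also holds the authors' signed fold change score per preparation, their mean fold ratio, and their p-values and q-values. Those deposited columns were not used, except that the headers pair the libraries and each q was checked.

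Libraries were compared with limma 3.58.1 in R 4.3.3 on log2(FPKM + 1), blocked by preparation. The pairing comes from the headers, which do not name a preparation. That a pair is a preparation was taken from the study's methods, which scale to NF serum within each preparation. Same-preparation libraries deviated together (r = 0.873, 0.743 and 0.741 across genes, against -0.706 to 0.235 for the other pairs). These correlations cannot check the pairing, because the entries had been selected by ratios within preparations, which favors joint deviation. They were also computed after each serum's mean was removed, which by itself lowers the values of the other pairs. The fit was tested on simulated data. Nothing states that libraries of a preparation came from separate cultures.

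The members and lists were chosen with earlier results of these data known. Of the 70 entries, 1 is counted but not reported here. Called members named were the 12 of largest change in each direction and up to 4 per role and direction by smallest p, and others are given with their values. Of the lists, up to 4 per direction by smallest p and cardiomyocyte markers were named. Uhrf1, Dpf3, Mta1, Rbbp4, the promoter motif and the complexes were chosen after values were seen. Alternatives covered the block, the pseudocount, a filter on low FPKM, centring, thresholds, adjustment over 20000 genes, robust eBayes and omission of each preparation.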

Additional observations from a re-analysis of the deposited data

How the results depend on the processing

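Among the 37 named entries, robust eBayes changed no call and the filter on genes under a mean of 1 FPKM changed none of the 36 it kept. Counts of called entries depended on the block, on scaling, on the threshold and on the preparations, above all B and C. Chromatin entries that fell numbered 45. They numbered 0 with no replicate block, 3 when centred on the table median, 16 at an adjusted p under 0.05, 0 with adjustment over 20000 genes, and 5 to 33 with a preparation left out. The 1 that rose, Kdm5c, became 0 with no replicate block, with a pseudocount of 0.1 or none, at an adjusted p under 0.05, over 20000 genes and without any preparation (0 to 0), and 2 when centred. For the table, 1984 lower became 1 with no replicate block, 288 when centred, 715 at 0.05, 3 over 20000 genes and 461 to 1164 with a preparation left out (523 without C). The 201 higher became 3 with no replicate block, 12 over 20000 genes and 97 to 140 with a preparation left out (131 without B). The 27 other chromatin genes that fell became 0 with no replicate block, 1 when centred, 4 at 0.05, 0 over 20000 genes and 1 to 13 with a preparation left out, and the 1 that rose became 0 with no replicate block, at 0.05, over 20000 genes and with a preparation left out (0 to 0). Centring made 90.8% lower calls into 53.1%. The median log2 ratio of the chromatin entries, -0.28, lay from -0.36 to -0.21 with a preparation left out. It became -0.013 when the mean of the table's preparation medians was subtracted from the ratios without a pseudocount. This differs from the centring behind the counts, which was done per library on log2(FPKM + 1). Some estimates changed sign in the centred limma fit, which uses log2(FPKM + 1). Of the named genes that fell, 7 were above 0: Med16 0.018, Brd8 0.037, Kat2b 0.048, Suv420h1 0.055, Kdm2b 0.00060, Kdm8 0.025 and Jmjd8 0.058. None of these 7 passed. The sign can depend on the pseudocount: without it, the log2 ratio of Kdm2b, -0.32, was below the table median of -0.29. A pseudocount of 0.1 or none ended the calls of Phf13, Kdm8 and Kdm5c. Causes were not tested, apart from fewer samples and a stricter limit by construction. Without read counts, the precision of low FPKM values cannot be given.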

Other observations

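Chromatin genes of low level had lower ratios in this table. The 9 entries with a mean under 3 FPKM had a median log2 ratio of -0.59, and 8 of them fell, where 61.6% of the whole table fell. The 38 entries from 3 to 10 FPKM had a median of -0.28, the 14 from 10 to 20 FPKM had -0.23, and the 9 from 20 FPKM upward had -0.20. The whole table was not split by level, so whether this order is particular to chromatin genes is not known. No entry of the table had a variance under 0.1, a limit that weighs on low levels, and its part in this order was not tested. The highest log2 ratio among the 9 entries under 3 FPKM was -0.07, for Crebbp at a mean of 2.91 FPKM, which did not pass. Chaf1b at 0.892 FPKM and Hdac9 at 1.69 FPKM, averaged over 6 libraries, are the lowest, and Kdm5c at 47.2 FPKM and Chd4 at 38.1 FPKM the highest.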
